A study of Homo sapiens with 6 samples.

Results

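The data compare hTert-HME1 cells that had received an siRNA against BRCA2 and were then grown without EGF (epidermal growth factor) with the same line after a control siRNA in complete medium that contains EGF. Both arms were sampled at passage 6, with 2 libraries each (biological replicates A and B in the labels), so the comparison uses 4 of the 6 libraries in the deposited table. The treated arm carries the BRCA2-2 siRNA and medium labelled -EGF. The control arm carries the control-1 siRNA and medium labelled +EGF (complete). Both were transfected with RNAiMAX, left to recover and kept in Mammary Epithelial Growth Medium. The siRNA and the medium differ together, so what either did alone cannot be told apart here. A control siRNA without EGF is described in the series text but is not among the 6 libraries of the deposited table. All libraries come from 1 established line of human breast epithelium that telomerase keeps dividing, and nothing in the labels says whether A and B were separate cultures, so the p-values measure a spread between libraries that may be technical.

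EGF is the ligand of EGFR, a receptor tyrosine kinase that basal breast epithelial cells depend on for growth in culture. The bound receptor switches on the RAS, RAF, MEK and ERK kinase cascade, which induces cyclin D1, ETS and AP-1 factors and a set of its own inhibitors, and the PI3K and AKT branch, which keeps FOXO factors out of the nucleus. BRCA2 acts in homologous recombination, which repairs breaks in DNA from an intact copy, and in the protection of stalled replication forks.

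Values are the deposited log2 levels, and differences are BRCA2 siRNA without EGF minus control. The table has 57820 gene rows, and 14808 of them were tested: those whose level, turned back from log2, averaged at least 10 over the 4 libraries. The normalised totals of the 4 libraries lay between 30786796 and 31222830. These are not sequencing depths, which are unknown, so no counting interval is given. In both arms the cells carried basal breast markers. All 12 basal markers looked up were above the filter, and KRT5, a basal keratin, stood at 16.97 and 16.90 in controls A and B and at 17.86 and 17.58 in the treated A and B. Of 10 luminal markers 6 were above the filter as well, among them the keratin KRT18 at 11.18 and 11.20 in the controls. Summed over all 10, 2 raised to the value was 4281 and 4141 in the controls and 3351 and 3117 in the treated libraries. Single members did not share 1 direction: of the 6, 3 differences were above 0 and 3 below, and by the test described below 1 rose and 1 fell. KRT19, EPCAM and ELF5, of the same list, were near 0, with values from -1.98 to 1.12. For the 12 basal markers the sum was 5.004e+05 and 4.889e+05 in the controls and 7.383e+05 and 6.773e+05 in the treated libraries. Of these 12, 10 differences were above 0 and 2 below.

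The replicates of the 2 arms differed in how close they were. The median gene differed by 0.056 between the 2 controls and by 0.180 between the 2 libraries without EGF, against a median difference between the arms of 0.200 in size. The standard deviation over genes was 0.119 for control A minus B, 0.308 for A minus B without EGF and 0.392 for the difference between the arms. A gap compares single libraries, while the difference between the arms compares means of 2, so these sizes are not like for like. In 77.9% of genes the gap was wider in the arm without EGF. A gap of at least 1 on the log2 scale (a doubling) occurred in 1 gene among the controls and in 127 genes without EGF.

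**Figure D1:**
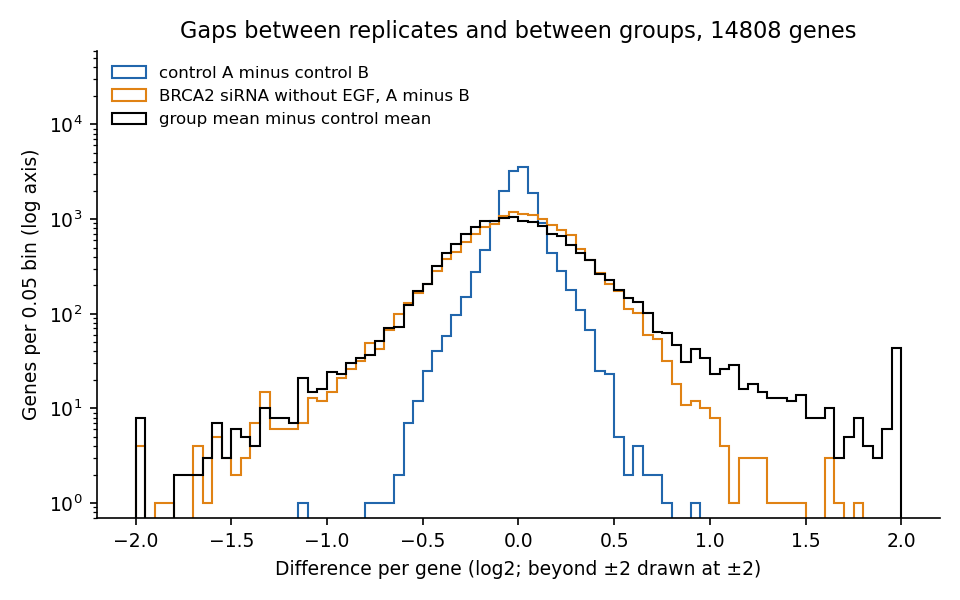
Histogram of 3 differences over the 14808 tested genes, in log2 units on the horizontal axis and genes per bin on a log vertical axis. The control gap (blue, SD 0.119) is narrow, and the gap between the libraries without EGF (orange, SD 0.308) is wider. The difference between the arms (black, SD 0.392) has the upper tail that extends furthest. Each gap compares single libraries and the black curve compares means of 2 libraries, so their widths are not like for like.

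The targeted gene came first. BRCA2 had values of 11.25 and 11.24 in controls A and B and of 11.15 and 10.89 in the treated A and B. Both treated libraries lay below both controls, but the difference of -0.23 ± 0.11 (SE) did not pass the test (limma, adjusted p = 0.231). Arms that do not overlap were found in 64.9% of all tested genes. With the passage 4 control added to the controls, where BRCA2 was at 10.19, the difference turned to 0.12. BRCA1, its partner in the same repair pathway, was at 11.87 and 11.85 against 11.78 and 11.51, with a difference of -0.21 (limma, adjusted p = 0.256) that likewise turned to 0.21 with that library added. EGFR, the receptor of the ligand left out, was at 15.34 and 15.39 in the controls and at 15.67 and 16.25 in the treated libraries, with a difference of 0.60 ± 0.20 (limma, adjusted p = 0.125). The 2 treated libraries differed from each other by more than A differed from the controls in BRCA2, BRCA1 and EGFR.

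Across the transcriptome, 962 genes passed the test (limma, adjusted p below 0.05), which is 6.50% of those tested. Of these, 536 were higher (3.62%) and 426 lower (2.88%). Called genes that rose had a median difference of 0.92 and those that fell one of -0.71. A simple count without a model found 403 genes (2.72%) whose 2 arms did not overlap and differed by at least 1, with 276 higher and 127 lower. The number of calls depends on how close the 2 controls are, and also on the filter and on which controls are used. With the passage 4 control added 152 genes passed. Without control A or without control B 61 genes passed, with the 2 controls averaged into 1 value 51 passed, and without treated A or B 8978 or 7010 passed. The count of arms apart by at least 1 moved less, to 417 and 407 without control A or B and to 630 and 347 without treated A or B. A core of 49 genes (38 higher, 11 lower) passed in the comparison of all 4 libraries, without either control and with the controls averaged, and the genes called core below are members. Of the 144 called genes named here, 31 are in it. The settings without a control or with averaged controls all take their spread from the 2 treated libraries alone, so they repeat much the same check. Membership did not require a call with no filter or with the passage 4 control added. Of the called genes, 20 that rose averaged under 10 in the controls and 3 that fell averaged under 10 without EGF. Rows just inside and outside the filter were at 10.0044 and 9.9964. With no filter on low values 78 genes passed, 77 of them among the 962. By kind of gene, 7.11% of 12122 protein-coding genes were called, 5.07% of 473 long intergenic RNAs, 2.85% of 632 antisense RNAs and 2.27% of 794 pseudogenes. Counting by strand is not stated, so reads of an antisense RNA and of its partner may be mixed.

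**Figure D2:**
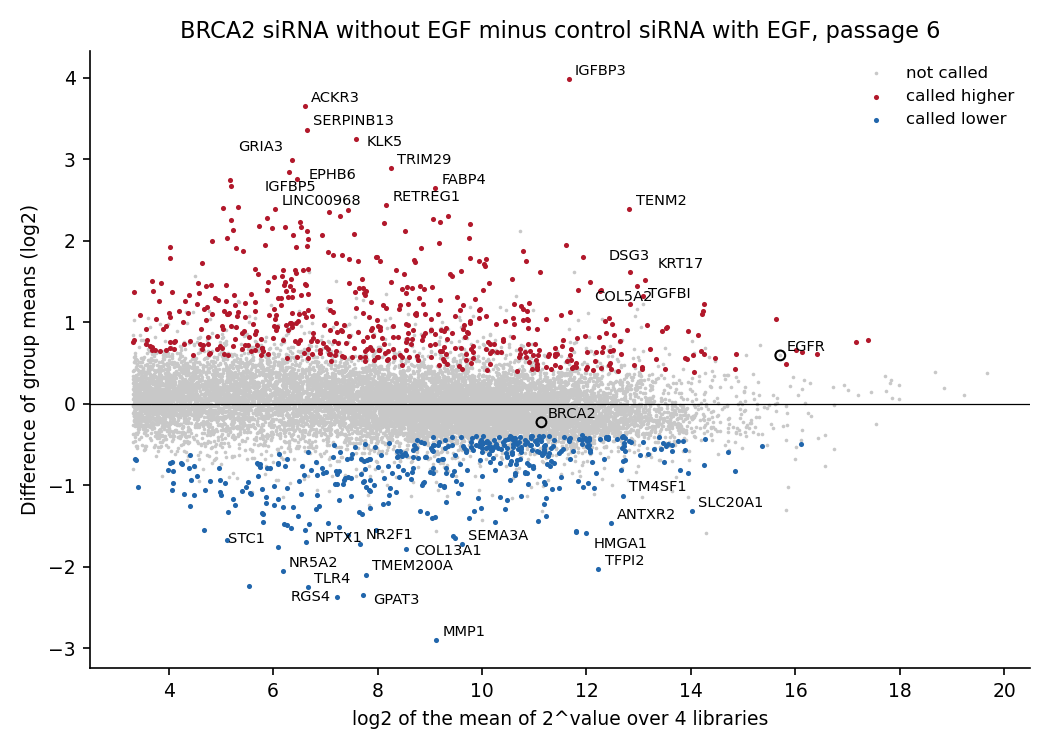
Difference between the arms (log2, vertical) against the level of each gene (log2 of the mean over 4 libraries, horizontal), with genes called higher in red, called lower in blue and the rest in grey. IGFBP3 lies highest at 3.99 and MMP1 lowest at -2.89, and the circles for BRCA2 and EGFR lie among genes that did not pass.

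The largest increases were in IGFBP3, ACKR3, SERPINB13 and KLK5. IGFBP3, which binds insulin-like growth factors outside the cell, had values of 8.50 and 8.66 in the controls and 12.49 and 12.65 without EGF. The arms lay far apart and each pair was tight, for a difference of 3.99 ± 0.10 (SE), or 15.9-fold (limma, adjusted p = 0.00363). ACKR3, an atypical chemokine receptor that takes up CXCL12, rose by 3.66, from 3.82 and 3.86 to 7.58 and 7.41. SERPINB13, a squamous cysteine protease inhibitor, was at 4.22 and 4.07 against 7.47 and 7.56, 10.3-fold higher. KLK5, a skin serine protease that helps shed keratinocytes, was at 5.09 and 5.26 against 8.69 and 8.15, 9.49-fold higher. The control values of ACKR3, SERPINB13 and KLK5 are low, and if the deposited values were shrunk, as their distribution would allow, such differences are understated.

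Others of the 12 highest were the glutamate receptor subunit GRIA3 (3.00), the basal-cell protein TRIM29 (2.89), IGFBP5 (2.85), the kinase-dead ephrin receptor EPHB6 (2.76), the fatty acid carrier FABP4 (2.65), the endoplasmic reticulum autophagy receptor RETREG1 (2.44), the adhesion protein TENM2 (2.40) and the noncoding LINC00968 (2.39). Of the 12, 11 belonged to the core of 49 calls, and RETREG1 did not: its treated libraries stood at 8.14 and 9.47, wide apart, over controls at 6.41 and 6.31. Among abundant genes, with a mean of at least 4000, TENM2 (11.30 and 11.03 against 13.42 and 13.71), the desmosomal cadherin DSG3, the keratin KRT17, the collagen COL5A2 and the matrix protein TGFBI rose most, by 2.40, 1.61, 1.52, 1.50 and 1.45.

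The largest decrease was in MMP1, interstitial collagenase. It had values of 9.97 and 9.90 in the controls and 7.03 and 7.05 without EGF, so the arms were apart and neither pair spread, and the difference was -2.89 ± 0.08 (SE), 7.43-fold lower (limma, adjusted p = 0.00363). TFPI2, a secreted inhibitor of serine proteases, fell by 2.02 from a high level, from 12.89 and 12.92 to 11.06 and 10.70. Others of the 12 lowest were RGS4, which shortens G protein signalling (-2.37), the lipid synthesis enzyme GPAT3 (-2.35), the innate immune receptor TLR4 (-2.25), the membrane protein TMEM200A (-2.09), the nuclear receptor NR5A2 (-2.05), the transmembrane collagen COL13A1 (-1.77), the hormone STC1 (-1.76), the guidance ligand SEMA3A (-1.72), the nuclear receptor NR2F1 (-1.71) and the pentraxin NPTX1 (-1.69). Of the 12, 9 belonged to the core, all but STC1, NR2F1 and NPTX1. Abundant genes that fell most were TFPI2, the chromatin protein HMGA1 (-1.59), the anthrax toxin receptor ANTXR2 (-1.46), the phosphate transporter SLC20A1 (-1.32) and the membrane protein TM4SF1 (-1.12).

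**Figure D3:**
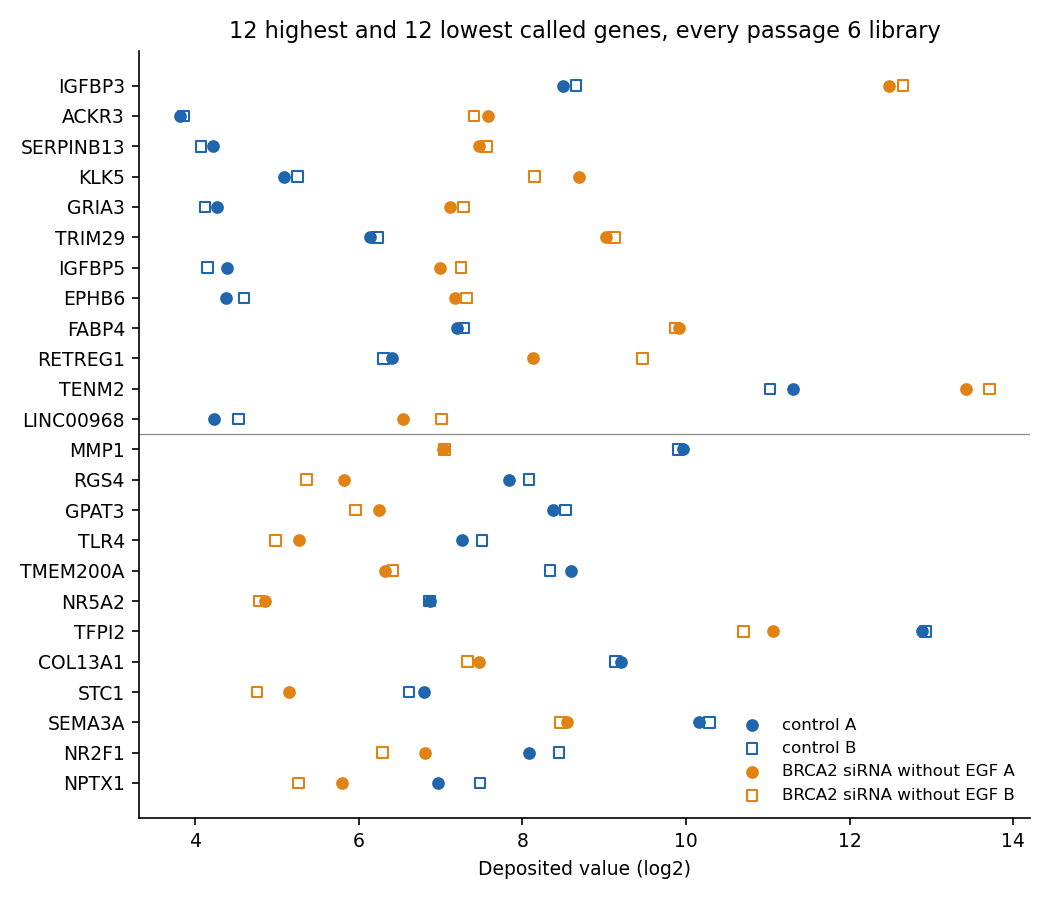
Deposited log2 values (horizontal) of the 12 highest and 12 lowest called genes in each of the 4 passage 6 libraries, controls in blue and libraries without EGF in orange, filled circles for A and open squares for B. Arms do not overlap in these 24 genes, as in all 962 called genes and in 64.9% of all tested genes. RETREG1 has the widest gap between the libraries without EGF among the 12 that rose.

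Genes that ERK signalling induces, most of them its own inhibitors, were lower as a group. Of 18 tested, 12 fell and 0 rose (66.7% called, against 6.50% of all tested genes). In all, 16 were below 0, and the median difference was -0.85, beside -0.02 over all tested genes. SPRY4, an inhibitor of receptor signalling, was at 10.11 and 10.06 in the controls and 8.71 and 8.16 without EGF. DUSP6, the phosphatase that removes activating phosphates from ERK, was at 12.40 and 12.36 against 11.06 and 10.59, 2.95-fold lower. CCND1, which encodes cyclin D1, was at 12.36 and 12.39 against 11.17 and 10.44. In each of these genes treated B was the lower of the pair. ETV5, an ETS factor induced by ERK, fell by 1.40 with a tighter pair (10.30 and 10.26 against 8.95 and 8.81). The others that fell were ETV1, ETV4, DUSP4, DUSP5, SPRY1, SPRY2, SPRED1 and IER3. The list's median was -0.90 in A alone and -0.69 in B alone. No member was in the core of 49.

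The AP-1 and immediate early list moved less. Of 17 tested, 1 fell and 0 rose (5.88% called, against 6.50% of all tested genes), with a median of -0.07. The gene called was FOSL1, the AP-1 subunit FRA-1, at 11.74 and 11.76 against 10.55 and 10.19 (-1.38). FOS, an AP-1 subunit of the immediate early response, was at 9.19 and 8.99 against 8.30 and 7.62 and did not pass (limma, adjusted p = 0.0636). Several called genes have an AP-1 sequence in RefSeq promoter windows of 300 bases (250 before the start to 50 after it), a description that says nothing of binding. The 7 letters TGANTCA, on either strand, occurred in 26 of 310 promoters of genes that fell (8.39%), in 28 of 380 of genes that rose (7.37%) and in 492 of all 10463 tested genes with a promoter entry (4.70%). NR5A2, TFPI2 and PLAUR, the urokinase receptor (-1.28), are shown because all are called lower and hold 1 match. Each line gives the 250 bases before the start from RefSeq (GRCh38.p14, which differs from the authors' hg19), 5′ to 3′ on the gene's strand, with the match in capitals. The windows are chr1:200027460-200027709 on the plus strand for NR5A2, chr7:93890754-93891003 on the minus strand for TFPI2 and chr19:43670170-43670419 on the minus strand for PLAUR.
NR5A2: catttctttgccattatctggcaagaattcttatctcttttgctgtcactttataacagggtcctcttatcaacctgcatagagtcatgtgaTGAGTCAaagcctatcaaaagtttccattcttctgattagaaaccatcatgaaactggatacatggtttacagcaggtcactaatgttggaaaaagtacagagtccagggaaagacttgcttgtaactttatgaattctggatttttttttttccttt
TFPI2: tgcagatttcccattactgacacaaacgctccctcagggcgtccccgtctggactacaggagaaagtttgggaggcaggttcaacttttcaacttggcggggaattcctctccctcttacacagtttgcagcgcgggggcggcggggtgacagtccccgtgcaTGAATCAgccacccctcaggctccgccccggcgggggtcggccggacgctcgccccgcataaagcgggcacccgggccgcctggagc
PLAUR: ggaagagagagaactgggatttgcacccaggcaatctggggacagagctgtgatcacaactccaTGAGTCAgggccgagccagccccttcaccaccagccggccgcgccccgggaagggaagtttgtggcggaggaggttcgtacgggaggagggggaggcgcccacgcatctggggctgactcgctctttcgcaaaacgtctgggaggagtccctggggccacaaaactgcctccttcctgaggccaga
The match begins 158 bases before the start in NR5A2, 87 in TFPI2 and 186 in PLAUR.

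Ligands and receptors of the EGFR family did not move as a list, with 0 higher and 2 lower of 15 and a median of 0.05. The share called was 13.3%, against 6.50% of all tested genes. TGFA, a soluble EGFR ligand, fell by 0.84, with values of 11.25 and 11.13 against 10.36 and 10.35. NRG2, a ligand of the ERBB3 and ERBB4 receptors, fell by 1.27. HBEGF, an EGFR ligand shed from the surface, was at 7.82 and 7.67 against 6.59 and 7.15, and NRG1 at 11.22 and 11.12 against 11.67 and 12.73; neither passed (limma, adjusted p = 0.0736 and 0.13). Treated B was the higher library in both.

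Receptors of other ligands were more often higher than lower. Of 11 other receptor tyrosine kinases tested, 4 rose and 0 fell (36.4% called, against 6.50% of all tested genes), with a median of 0.27. These were the fibroblast growth factor receptors FGFR3 (1.75) and FGFR2 (1.43), the Wnt5a receptor ROR1 (1.02) and the collagen receptor DDR1 (0.59). FGFR2 was at 6.74 and 6.77 against 8.37 and 7.99, while FGFR3 had a wide treated pair, at 7.70 and 7.37 against 9.72 and 8.84. Of 15 Eph receptors and ephrins, 5 rose and 0 fell (33.3% called), among them EPHB6 (2.76), EPHB3 (1.27) and the ligand EFNA1 (1.27). In the insulin-like growth factor list, 3 of 19 rose and 1 fell (21.1% called). The 3 were the binding proteins IGFBP3, IGFBP5 and IGFBP2 (1.57), and the one that fell was STC1, which blocks a protease of such binding proteins.

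Notch and guidance genes followed. Of 16 Notch pathway genes, 4 rose and 0 fell (25% called, against 6.50% of all tested genes), with a median of 0.41. DLL1, a Notch ligand, was at 7.99 and 7.77 in the controls and 9.81 and 9.89 without EGF, 3.93-fold higher and in the core. The receptors NOTCH3 (1.11) and NOTCH1 (0.63) and the ligand JAG2 (0.98) rose too. Of 24 semaphorins, plexins, netrins and slits, 6 rose and 3 fell (37.5% called). SLIT3, a ligand of ROBO receptors, rose by 1.76 (8.77 and 8.84 against 10.50 and 10.62), and SEMA3A fell by 1.72 (10.16 and 10.29 against 8.54 and 8.47); both are in the core. Of 21 Wnt pathway genes, 3 rose and 1 fell (19% called). Their median of -0.01 turned to 0.02 with each library centred on its median or with quantile normalisation. WNT4, a ligand made in breast epithelium, was at 3.46 and 3.57 against 5.60 and 5.42, and AXIN2, a feedback target of beta-catenin, rose by 1.02. In the TGF-beta, activin and BMP list, 5 of 21 rose and 2 fell (33.3% called). TGFBI, the coreceptor TGFBR3 (1.31) and the helix-loop-helix protein ID2 (1.59) were highest among those called.

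Junction genes were higher as a group. Of 24 adherens junction and desmosome genes, 12 rose and 0 fell (50% called, against 6.50% of all tested genes), with a median of 0.47. CDH1, which encodes E-cadherin, was at 7.60 and 7.42 in the controls and at 9.78 and 9.79 without EGF, 4.84-fold higher (limma, adjusted p = 0.0074). DSG1, a desmosomal cadherin of differentiating squamous layers, rose from 3.23 and 3.21 to 6.15 and 5.78, a difference of 2.75. Its controls lay under the filter of 10, so it was tested only through the libraries in which it was high, and its call is no support for the group. CDH1 and DSG1 belong to the core. DSG3, the basal desmoglein, rose by 1.61 but its treated libraries lay apart, at 12.95 and 13.79. DSP, the desmosomal plaque protein, was at 15.02 and 15.00 against 16.03 and 16.07. Of 17 tight and gap junction genes and their regulators, 5 rose and 1 fell (35.3% called). The grainyhead factor GRHL3 rose by 1.83, OCLN (occludin) by 0.99 and the epithelial splicing factor ESRP1 by 0.95. CLDN1, a claudin, showed a wide gap, at 9.14 and 9.15 against 10.50 and 12.05, and its difference of 2.13 did not pass (limma, adjusted p = 0.0741).

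Calls among basal keratins and among kallikreins and serpins were increases, while those among simple keratins and cornified envelope genes went both ways. Of 11 basal and activated keratins, 5 rose and 0 fell (45.5% called, against 6.50% of all tested genes), with a median of 0.66. KRT17, an activated basal keratin, was at 12.22 and 12.13 against 13.69 and 13.70, with nearly equal treated libraries, and is in the core. KRT16 rose by 1.54, KRT6B by 0.82, KRT5 by 0.79 and KRT14 by 0.76. Keratins share near-identical stretches and pseudogenes, so how reads were divided among KRT14, KRT16, KRT17 and KRT6B is uncertain. Of 9 kallikreins and clade B serpins, with SLPI counted among them, 5 rose and 0 fell (55.6% called). SLPI, a secreted protease inhibitor, was at 6.67 and 6.56 against 8.56 and 9.10, and SERPINB2, which inhibits urokinase, rose by 1.65. Of 14 cornified envelope genes, 3 rose, among them the crosslinking enzyme TGM1 (1.10), and 1 fell (28.6% called). The luminal keratin KRT18 fell by 0.85, from 11.18 and 11.20 to 10.41 and 10.27. Of 10 simple keratins and luminal genes 1 rose and 2 fell (30% called). In a list of epithelial transcription factors and related genes, 2 of 14 rose and 2 fell (28.6% called). The basal-cell protein TRIM29, counted in that list, rose by 2.89, and the factors SOX9 (-1.14) and TFAP2C (-0.93) fell.

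Genes of the basement membrane and of the interstitial matrix were also higher. Of 22 basement membrane and hemidesmosome genes, 10 rose and 0 fell (45.5% called, against 6.50% of all tested genes), with a median of 0.41. BCAM, a laminin receptor in the core of calls, was at 8.41 and 8.34 against 9.90 and 10.03. NID1, which links laminin to collagen IV, rose by 1.35, HSPG2 (perlecan) by 1.04 and COL7A1, the anchoring fibril collagen, by 0.93. Of 17 integrins, 3 rose and 2 fell (29.4% called). ITGB6 (1.80), ITGB8 (1.39) and ITGAV (0.65) rose, and their products pair as receptors that release latent TGF-beta. The collagen receptor subunits ITGA2 (-0.95) and ITGA10 (-0.61) fell.

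Of 23 interstitial collagens and fibroblast matrix genes, 14 rose and 2 fell (69.6% called, against 6.50% of all tested genes), with a median of 0.66. COL1A1, a chain of collagen I, was at 8.91 and 9.02 in the controls and 10.76 and 10.55 without EGF, 3.23-fold higher and in the core. COL3A1 rose by 1.75, FAP, a fibroblast surface protease, by 1.49 and MFAP5, a microfibril protein, by 2.13 from a low level. COL13A1 and COL6A3 fell, by 1.77 and 0.67. The list overlaps the fibroblast markers, of which 6 of 9 tested rose and whose median was 1.34. Summed over that marker list, 2 raised to the value was 2264 and 2634 in the controls and 6980 and 7139 without EGF. The defining fibroblast markers PDGFRA, COL1A2 and TCF21 were below the filter in every library, PDGFRA at 2.94 and 3.25 against 2.62 and 2.72, COL1A2 at 2.43 and 2.73 against 2.76 and 2.73, and TCF21 at -1.97 in controls A and B. In bulk RNA, more cells that express a gene and more of its RNA in each cell cannot be told apart. Of the endothelial markers 2 of 8 were tested, KDR (1.23, called) and TEK, with CDH5 at 0, and 0 of 8 blood cell markers passed the filter. FABP4 was the 1 adipocyte marker of 6 above the filter, with ADIPOQ at 0.

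Calls among metalloproteases and their inhibitors went both ways, while most of those among plasminogen activator genes were decreases. Of 19 metalloproteases and their inhibitors, 2 rose and 2 fell (21.1% called, against 6.50% of all tested genes). The median of -0.01 turned to 0.01 with each library centred on its median and to 0.07 with quantile normalisation. TIMP3, a matrix-bound inhibitor, was at 9.55 and 9.54 against 11.59 and 11.25 and rose by 1.88. Of 13 plasminogen activator genes, 1 rose and 6 fell (53.8% called), with a median of -0.38. PLAUR was at 10.50 and 10.47 against 9.48 and 8.93, and PLAT, tissue plasminogen activator, at 11.60 and 11.64 against 10.81 and 10.46. The one that rose was SERPINB2, and TFPI2 was the one in the core. Among mesenchymal markers, 5 of 19 rose and 2 fell (36.8% called), and the members went different ways. TAGLN, an actin-binding protein, rose by 1.54 and POSTN by 1.22, while CDH11 fell by 1.43 and VIM, vimentin, by 0.59. POSTN was one of the 5 genes with the widest control gap, at 7.57 and 8.12 against 9.06 and 9.08.

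FOXO factors and their targets were higher in part. Of 21, 5 rose and 0 fell (23.8% called, against 6.50% of all tested genes), with a median of 0.52. FOXO1 was at 7.72 and 7.60 against 8.84 and 9.34, FBXO32, a muscle atrophy ubiquitin ligase, rose by 1.42 and SESN3, an inhibitor of mTORC1, by 1.17. SOD2, mitochondrial superoxide dismutase, was at 12.27 and 12.18 against 12.73 and 14.17 and did not pass (limma, adjusted p = 0.162). The death ligand TNFSF10, also known as TRAIL, rose by 2.36 (5.40 and 5.45 against 8.08 and 7.48). In the aryl hydrocarbon receptor list, 3 of 10 rose (30% called). CYP1A1 was at 5.08 and 4.85 against 6.68 and 7.38 and CYP1B1 was higher by 1.45, both enzymes of foreign compound oxidation.

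Inflammatory genes were split between the treated libraries. Of 25 genes of the NF-kB pathway and inflammatory cytokines, 2 rose and 1 fell (12% called, against 6.50% of all tested genes). The list's median was 0.06 in A and 0.74 in B. CSF3, a granulocyte growth factor, fell by 1.62 (10.04 and 10.01 against 8.74 and 8.06), while SAA1, an acute phase protein, rose by 1.06 and CSF1, a macrophage growth factor, by 1.08. Of 15 antigen presentation genes, 0 fell and 3 rose (20% called), HLA-F by 0.78, TAPBP by 0.53 and HLA-B by 0.49. HLA genes share sequence, so their reads are uncertain. Of 24 interferon-stimulated genes, 3 rose and 1 fell (16.7% called). The RNA sensor IFIH1 rose by 1.12 with close pairs, 7.05 and 7.05 against 8.09 and 8.24.

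**Figure D4:**
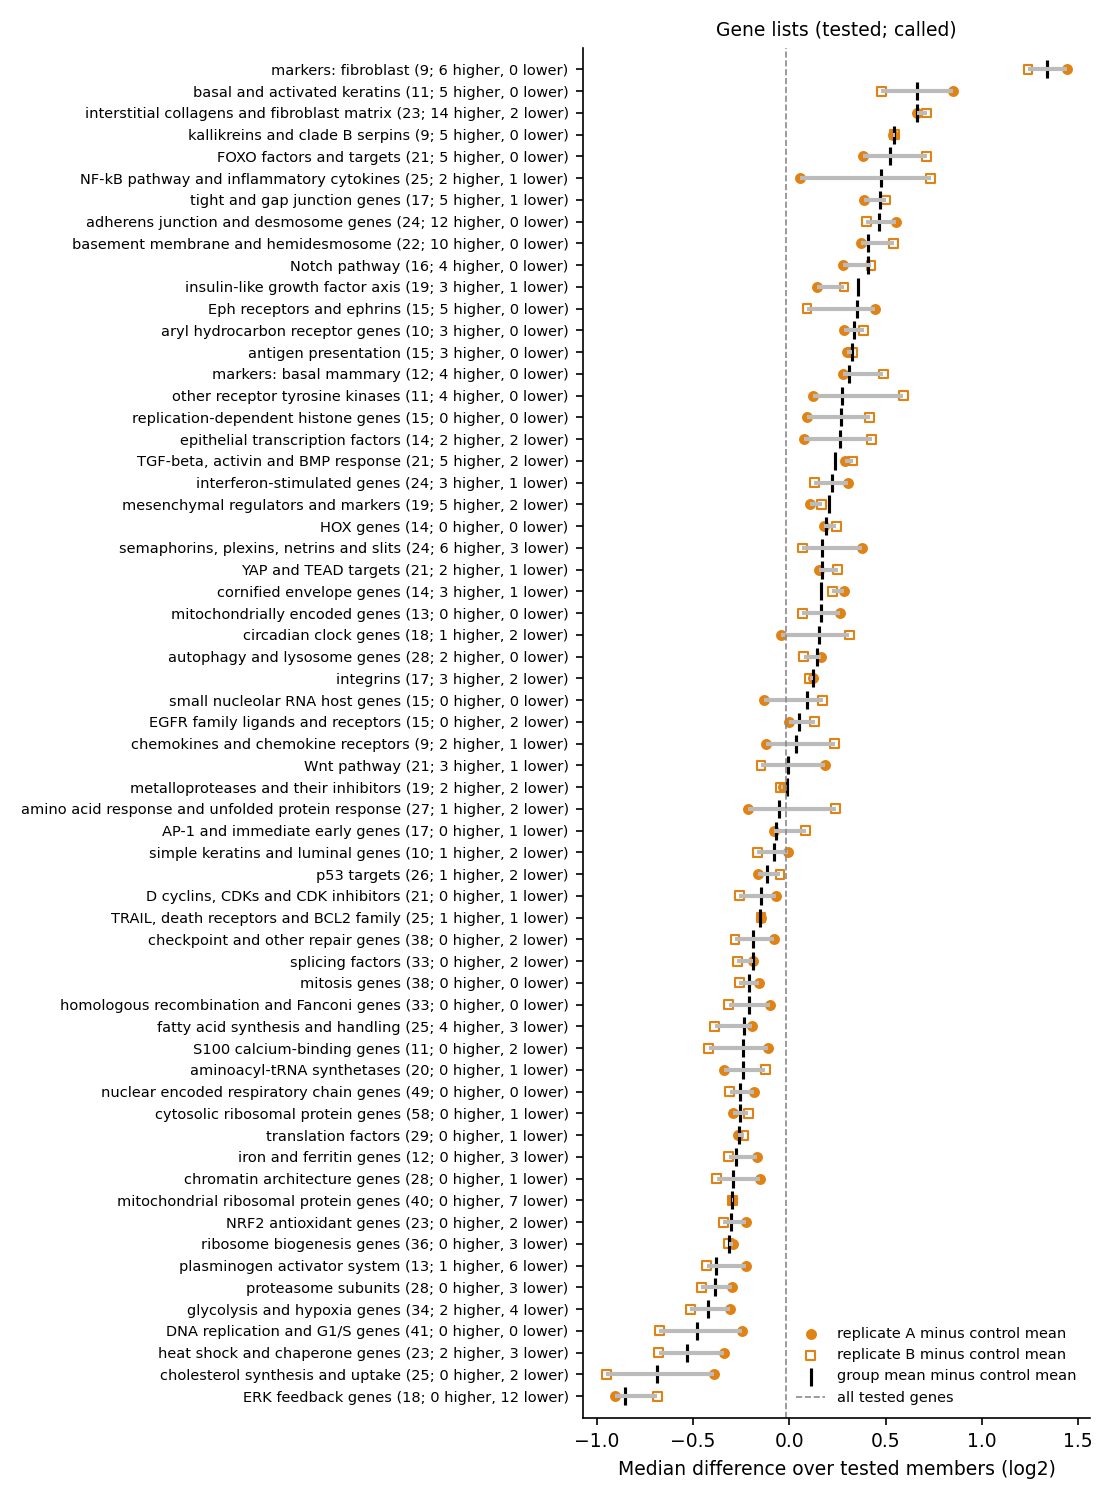
Median log2 difference over the tested members of each gene list with at least 9 tested members (horizontal), for treated A (filled circles), treated B (open squares) and their mean (black ticks), with the counts tested and called in the labels. The dashed line marks all tested genes at -0.02; ERK feedback genes lie lowest at -0.85 and fibroblast markers highest at 1.34, and lists such as NF-kB, DNA replication and cholesterol synthesis show wide gaps between A and B.

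Growth-related lists lay below 0 with few calls. Over all tested genes, 7784 of 14808 were below 0. All 41 tested DNA replication and G1/S genes were below 0, with a median of -0.48, yet limma called 0, with 23 at an unadjusted p below 0.05 (over all tested genes, 4668 were). The median was -0.24 in A and -0.68 in B, and 40 of 41 were lower in B than in A. RRM2, the ribonucleotide reductase subunit, was at 13.16 and 13.18 against 12.59 and 11.89 (limma, adjusted p = 0.0816). PCNA, the sliding clamp of DNA polymerases, was at 12.21 and 12.23 against 11.85 and 10.82 (limma, adjusted p = 0.162). GINS2, a subunit of the replicative helicase, was at 9.18 and 9.23 against 8.85 and 8.39. In each of these genes B was well below A. Their arms did not overlap, which was so in 64.9% of all tested genes. Of 38 mitosis genes 35 were below 0 and of 33 homologous recombination and Fanconi genes 28, with medians of -0.21 in both lists. Limma called 0 in either, with 18 and 8 genes at an unadjusted p below 0.05. CCNE2, cyclin E2, was at 8.24 and 8.32 against 7.79 and 6.30 and did not pass (limma, adjusted p = 0.17).

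A promoter sequence was searched for in the replication list. E2F-type matches, TTTGGCGC or TTTCCCGC on either strand in the same 300-base windows, occurred in 15 of 35 of its promoters with an entry (42.9%), in 9 of 310 of genes that fell (2.90%) and in 387 of all 10463 (3.70%). The replication list was assembled from known genes of that function, so its share is not a result of these data. PCNA and GINS2 are shown as examples, printed as above with the match in capitals. Their windows are chr20:5126623-5126872 and chr16:85688955-85689204, both on the minus strand of GRCh38.p14 in RefSeq.
PCNA: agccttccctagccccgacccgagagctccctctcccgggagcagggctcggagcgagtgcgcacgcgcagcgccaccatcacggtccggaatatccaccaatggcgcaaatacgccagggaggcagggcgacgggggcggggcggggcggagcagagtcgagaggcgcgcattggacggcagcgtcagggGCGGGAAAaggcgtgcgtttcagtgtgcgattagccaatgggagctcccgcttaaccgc
GINS2: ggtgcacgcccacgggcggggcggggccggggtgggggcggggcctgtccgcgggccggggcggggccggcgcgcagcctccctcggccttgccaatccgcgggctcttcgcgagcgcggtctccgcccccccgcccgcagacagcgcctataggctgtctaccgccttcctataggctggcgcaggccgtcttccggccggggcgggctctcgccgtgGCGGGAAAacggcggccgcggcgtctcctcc
The match lies 59 bases before the start in PCNA and 31 in GINS2, and in both it is the reverse complement of TTTCCCGC. For the other motifs, the sterol response sequence CACCCCAC occurred in 1 of 18 cholesterol gene promoters (5.56%, against 2.54% of all). It occurred in 2.11% of genes that rose and 4.84% of genes that fell. The FOXO sequence GTAAACA occurred in 3 of 19 of the FOXO list (15.8%, against 2.24% of all). That list was assembled from FOXO factors and targets, so its share is not a result of these data. Among called genes it was 2.63% of those that rose and 2.90% of those that fell.

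Sterol synthesis genes had the second lowest median of the lists with at least 9 tested members. All 25 tested were below 0, with a median of -0.69, and 2 fell by the test (8% called, against 6.50% of all tested genes). The 2 were ACAT2, at 12.48 and 12.38 against 11.63 and 11.29, and FDFT1, squalene synthase, at 14.16 and 14.12 against 13.48 and 13.18. HMGCS1, which makes the precursor of the pathway, was at 14.86 and 14.81 against 13.94 and 12.58 and did not pass (limma, adjusted p = 0.096), and its treated libraries differed by more than A differed from the controls. The list's median was -0.39 in A and -0.95 in B. Among fatty acid genes, 4 of 25 rose and 3 fell (28% called). FABP4, the desaturase SCD5 (1.24), FADS3 and FABP5 rose, and the acetyl-CoA synthetase ACSS2 (-1.16), the nuclear receptor PPARG (-0.93) and ACSL4 fell.

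Protein and energy production showed shifts that were small and shared by most members. The cytosolic ribosomal proteins had a median of -0.26, with all 58 genes negative and 1 call (RPL27, -0.40). All 36 ribosome biogenesis genes were below 0 with a median of -0.31 and 3 calls, NPM1 among them (-0.49). All 28 proteasome subunits were below 0 with a median of -0.38 and 3 calls. Of 40 mitochondrial ribosomal protein genes 38 were below 0 and 7 fell, with a median of -0.30, and of 49 nuclear respiratory chain genes 45 were below 0 with 0 limma calls and 23 at an unadjusted p below 0.05. The 13 mitochondrially encoded genes lay the other way, all above 0 with a median of 0.16, 0 limma calls and 3 at an unadjusted p below 0.05. Of 34 glycolysis and hypoxia genes, 2 rose and 4 fell, with a median of -0.42; the glucose transporter SLC2A3 fell by 1.16 and the peptide hormone ADM rose by 0.98. The share called was 1.72% in cytosolic ribosomal, 8.33% in ribosome biogenesis, 10.7% in proteasome and 17.5% in mitochondrial ribosomal genes. It was 17.6% in the glycolysis and hypoxia list and 6.50% over all tested genes. These shifts are relative to a median of -0.02 over all tested genes, of which 7784 of 14808 were below 0. None of these list medians changed sign with each library centred on its median or with quantile normalisation.

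Most chaperones lay below 0, with calls in both directions. Of 23 heat shock and chaperone genes 20 were below 0, with a median of -0.53, 2 rose and 3 fell (21.7% called, against 6.50% of all tested genes). The small heat shock proteins CRYAB (1.95) and HSPB1 (0.93) rose, and the 3 that fell were subunits of the cytosolic folding complex TRiC, CCT6A, CCT8 and TCP1. HSPA8, the constitutive cytosolic chaperone, was at 16.22 and 16.29 against 15.75 and 14.15 (limma, adjusted p = 0.173). In the iron list 3 of 12 fell (25% called), with the metalloreductase STEAP1 at 9.62 and 9.55 against 8.22 and 8.14. HMGA1, an architectural chromatin protein in the core, was at 12.56 and 12.58 against 11.04 and 10.93. It was the 1 call among 28 chromatin architecture genes (3.57%, against 6.50% of all tested genes).

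The 2 libraries without EGF differed from each other in stress genes. The 5 widest gaps at a mean of at least 50 were in INHBE, STC2, ATF3, CHAC1 and PPP1R15A, all targets of the ATF4 arm of the integrated stress response, and B was the higher in each. INHBE, a subunit of activin E, was at 5.04 and 4.68 in the controls, 4.79 in A and 7.36 in B. ATF3, a stress-induced transcription factor, was at 8.46 and 8.36, then 8.39 in A and 10.44 in B. PPP1R15A, which reverses the eIF2 alpha phosphorylation of that response, was at 11.05 and 11.09, then 10.92 in A and 12.75 in B. In INHBE, ATF3 and PPP1R15A, A lay within 0.2 of the control mean and B more than 1.5 above it. In CHAC1, a glutathione-degrading enzyme, A was below both controls (6.75 against 7.59 and 7.21) and B above (8.62), and STC2 showed the same order. Of 27 genes of the amino acid response and unfolded protein response, 20 were higher in B than in A, with a median B minus A of 0.54; the same median was -0.07 between the controls. In the other direction, cholesterol genes (24 of 25 lower in B, median B minus A -0.44), replication genes (40 of 41, -0.46) and chaperones (21 of 23, -0.28) were lower in B. Other lists went both ways between B and A: the interstitial matrix was higher in B in 12 genes and lower in 11, kallikreins and serpins in 5 and 4, and adherens junctions in 15 and 9. The cause of the gap between A and B was not tested.

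**Figure D5:**
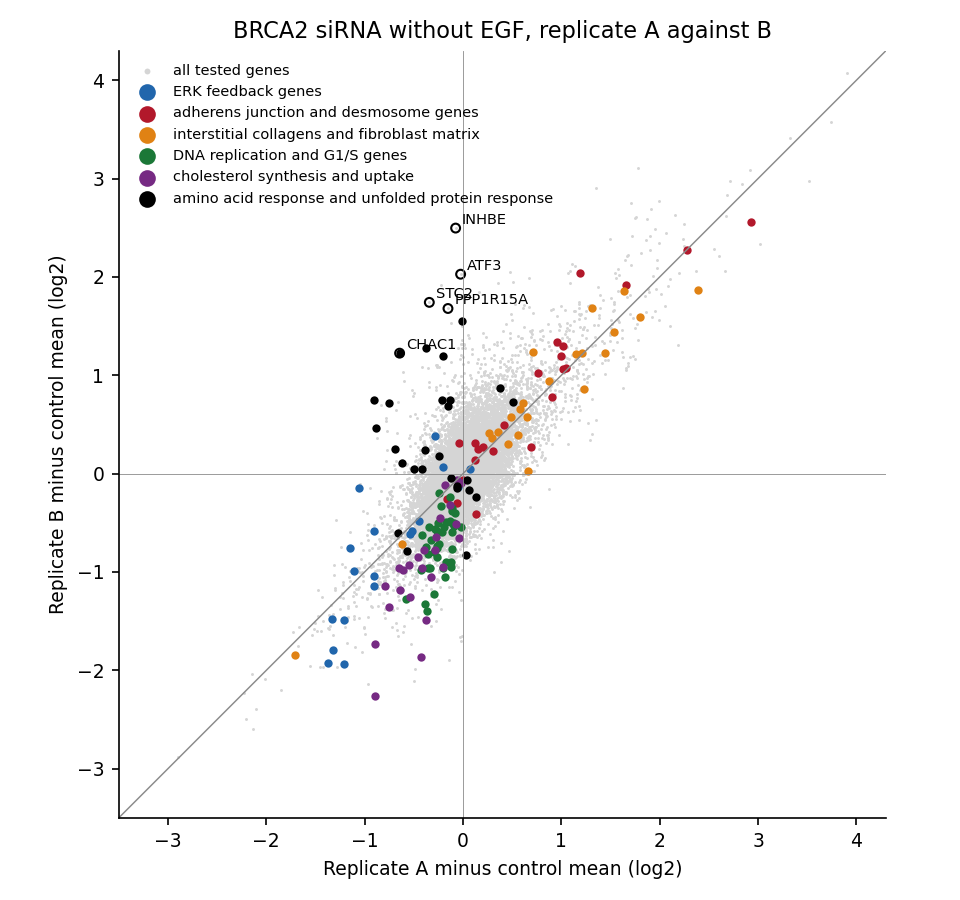
Difference from the control mean (log2) in treated A (horizontal) against treated B (vertical) for all tested genes in grey and 6 gene lists in colour, with a line where both are equal. Matrix and junction genes lie near the diagonal, replication and cholesterol genes lie below it, and ATF3, INHBE, STC2, CHAC1 and PPP1R15A (open circles) lie above it, near or below 0 in A and above 1 in B.

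The table also holds a passage 4 pair, 1 library of control siRNA and 1 of BRCA2 siRNA, both with EGF, which shares no library with the comparison above. Its labels are in doubt for direction, because BRCA2 stood at 10.19 in the library labelled control and at 10.88 in the library labelled BRCA2 siRNA, 0.69 higher. Each side has 1 library, so its spread was taken from the passage 6 pairs. The test of the passage 6 difference against the passage 4 difference therefore assumes that single libraries at passage 4 vary like those at passage 6. Under that assumption 537 genes passed (limma, adjusted p below 0.05), 3.63% of those tested, but 0 passed without control A (2080 at an unadjusted p below 0.05), 2 without control B and 0 with no filter on low values (5841 at an unadjusted p below 0.05). The values below are therefore given as a description. The difference of IGFBP3 was 3.99 at passage 6 and -0.22 at passage 4, that of ACKR3 3.66 and -0.03, and that of SERPINB13 3.37 and 0.04. MMP1 was -2.89 at passage 6, while its 2 passage 4 libraries were at 9.76 and 9.76. FBXO32 differed by 1.42 at passage 6 and by -2.76 at passage 4, and GPNMB, a melanosomal and lysosomal glycoprotein, by 2.09 and -1.53. CXCL1, CSF3 and CXCL8, attractants and growth factors of neutrophils, differed by -0.78, -1.62 and -0.64 at passage 6 and by 3.35, 1.99 and 2.51 at passage 4. RGS4 and STC1 were lower at passage 6 (-2.37 and -1.76) and higher by label at passage 4 (1.71 and 2.30).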

How the data were processed

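Polyadenylated RNA of 6 libraries was sequenced after a ScriptSeq preparation, per the labels' protocols. The authors deposited 1 table of log2 values per gene. Per the submitters' processing notes, TopHat2 2.0.11, DESeq2 and the build hg19 were used. How reads were counted, on which annotation, and how values were transformed is not given in the sources used here, and differences of low genes may be understated. Depth is unknown, so count models could not be used. In all, 0 columns lacked a sample, and 96.5% of tested genes had a symbol.

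Arms were compared with limma 3.58.1 in R 4.3.3 (trend and robust prior, two-sided, Benjamini-Hochberg over 14808 genes), with 2 against 2 libraries. An exact permutation test of 2 against 2 cannot reach the threshold of 0.05. The passage contrast used all 6 libraries. The replicate letters are shared between the arms but were not used as a pairing.

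The members and the 67 gene lists were chosen with earlier results of these data known, and so were the rules for named genes: the 12 highest and lowest calls at a mean of at least 50, the 5 highest and lowest at 4000, 4 members a list, the 5 widest gaps and the 5 extremes of the passage contrast. Other list members, and MMP1 at passage 4, were named after their values were seen. Some genes that the rules chose are not reported here. Of 1520 list genes, 1313 were tested and 17 were not matched. Alternatives changed the filter, scaling, offset, prior, pairing and libraries used. Promoters came from RefSeq (GRCh38.p14).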

Additional observations from a re-analysis of the deposited data

Results flagged for a closer look

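The passage 6 difference and the passage 4 difference, tested against each other with limma, were unlike in 537 genes, but in 0 without control A (2080 at an unadjusted p below 0.05), 2 without control B and 0 with no filter on low values (5841 at an unadjusted p below 0.05). The passage 4 pair has 1 library a side, assumed to vary like those at passage 6, and labels in doubt, so the values are a description and the sign of its part holds by label only. The passage 6 difference minus the passage 4 difference was 4.21 for IGFBP3, 4.19 for FBXO32, 3.69 for ACKR3, 3.62 for GPNMB and 3.32 for SERPINB13. It was -4.13 for CXCL1, -4.08 for RGS4, -4.05 for STC1, -3.61 for CSF3 and -3.16 for CXCL8. In IGFBP3, ACKR3 and SERPINB13 nearly all of it came from passage 6. In FBXO32, GPNMB, CXCL1, RGS4, STC1, CSF3 and CXCL8 the differences at passage 6 and passage 4 had opposite signs. The arms at passage 6 hold 2 libraries each, too few to look for a single library that stands apart.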

How the results depend on the processing

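Against 962 calls (536 higher, 426 lower), 78 (53 and 25) passed with no filter on low values, 51 (40 and 11) with the controls averaged and 152 (131 and 21) with the passage 4 control added. Leaving out 1 library gave 61 to 8978 calls, 48 to 4173 higher and 12 to 4805 lower. Without a control, or with both averaged, fewer libraries measure the spread, and without a treated library it comes from the close controls alone. Arms apart by at least 1 numbered 347 to 630 with 1 library left out; that count has no model, so the block and the prior gave no value for it. The passage contrast gave 0 limma calls with no filter (5841 at an unadjusted p below 0.05), 351 with quantile normalisation and 0 to 9070 with 1 library left out. The cause of the changes with no filter, quantile normalisation and the passage 4 control was not tested. A stricter filter, other scaling of the 4 libraries, an offset of 10 and a plain prior kept the 3 counts of calls within 1.5 times.

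The replicate block gave 1214 calls, 834 of them among the 962, but the arms share only the letters: A minus B deviations correlated at -0.172 over genes. Crossed letters, added after this was seen, gave 1823 calls (970 higher, 853 lower).

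Directions reversed for 7 named genes. With the passage 4 control added, BRCA2 was 0.12 and BRCA1 0.21. With 1 library left out, ATF3 ran from -0.024 to 2.03, CHAC1 from -0.64 to 1.22, INHBE from -0.075 to 2.50, PPP1R15A from -0.15 to 1.68 and STC2 from -0.34 to 1.74.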

Other observations

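A few lists not described above had members past the limma threshold. Among 18 circadian clock genes, 1 rose and 2 fell: NPAS2, a partner of the clock factor BMAL1, was at 8.75 and 8.81 in the controls and 7.58 and 7.83 without EGF, and BHLHE40, a clock repressor, fell by 0.93. Among 23 NRF2 antioxidant genes, 0 rose and 2 fell, ME1 (malic enzyme) by 0.74 and GCLM, a subunit of the enzyme that makes the glutathione precursor, by 0.58. Among 26 p53 targets, 1 rose and 2 fell, BTG2 by 0.61 against AEN (-0.79) and TIGAR (-0.44), and the median was -0.12. Among 21 YAP and TEAD targets, 2 rose and 1 fell, ANKRD1 by 0.75 and ARHGEF17 by 0.47 against NT5E (-0.74). These shares of calls lie between 8.70% and 16.7%, beside 6.50% of all tested genes.

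Other lists in which limma called 0 genes were replication-dependent histones (15 tested, 4 at an unadjusted p below 0.05), small nucleolar RNA host genes (15 tested, 2) and HOX genes (14 tested, 3). Histone genes are near-identical copies, so their reads are uncertain.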
